A study of Bos taurus with 2 samples.

Results

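The miRNAs described here are those whose array names run from miR-2286 to miR-2491, in any lettered or arm form, leaving out miR-2478. The rule reads names only and uses no measured value. It found 240 miRNAs with 202 different numbers, the highest of them 2489, among the 670 cattle miRNAs of the array, or 35.8% of the array. They are read by 516 probes, 2 to 4 for each miRNA, and each miRNA has 60 spots on an array. The samples were Holstein raw milk whey split by a spin at 10000 g for 90 min at 4 °C. That force is lower than is usually meant by the labels' word ultracentrifugation. The pellet, washed by further spins, is the fraction labelled exosome, and the fluid above it is the fraction labelled supernatant. RNA from 3 milks was pooled in equal amounts within each fraction, and 40 ng of each pool was labelled with Cy3 and read on 1 array. There is thus 1 array per fraction and no replicate, no difference between fractions can be tested, and each SD below is the spread over spots of 1 miRNA on 1 array.

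A miRNA is a short RNA, cut from one arm of a hairpin, that guides Argonaute proteins to messenger RNAs through the bases near its 5′ end, called the seed. Milk carries miRNAs inside vesicles and also outside them, bound to proteins and other particles. Numbers in this range were given to miRNAs registered in cattle, largely from sequencing of small RNA, and for most of them little is known of a function. On this kind of array a DNA probe pairs with the 3′ end of the miRNA, and it is shortened at the end that would pair with the seed until its strength of binding suits the assay. Probes rich in G and C are therefore short, and such a probe reads only the 3′ part of its miRNA.

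Intensities are background-subtracted spot brightness in the scanner's units. The scanner software marks each spot that stands well above background. A probe counted as detected when 50% or more of its spots carried this mark, and a miRNA when any of its probes did. Signals of different miRNAs come from different probes and are not compared as amounts. By that rule 34 of the 240 miRNAs (14.2%) were detected in supernatant, near the 12.7% of all array miRNAs. In exosome 10 (4.17%) were detected, under the 9.85% of all array miRNAs. Both arrays detected 9 of them (3.75%, against 4.48% of the array). Detection in exosome only was seen for 1 (0.417%, against 5.37%), and in supernatant only for 25 (10.4%, against 8.21%). The other 205 (85.4%, against 81.9%) were detected on neither. In all, 35 of the 240 carried a signal somewhere.

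The probes of the 9 miRNAs detected on both arrays show how alike most of them are, so the longest probe of each is given from the deposited array design, 5′ to 3′, with runs of 3 or more C in capitals.
miR-2305: CCCCCtCCCCgc
miR-2412: CCCtctCCCCacc
miR-2316: CCCgccgcagtc
miR-2328*: tggCCCCCtCCC
miR-2374: CCCgcctctCCC
miR-2455: tCCCtgcctCCCC
miR-2291: ctgCCCCagtcgc
miR-2391: gggggggagtttttt
miR-2304: acacacacaaccacac
A C in the probe pairs with a G in the miRNA, so the first 7 of these read G-rich 3′ ends. Those 7 probes held 53.8% to 83.3% C and at most 25% G, and each had a C run of 3 or more. miR-2391 is the opposite case, with no C at all and 53.3% G, and miR-2304 is an alternation of A and C with no G and 50% C.

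The 8 brightest of the miRNAs detected in supernatant only had the following longest probes, shown because the same C-rich pattern recurs in most of them.
miR-2348: ggccgctccaca
miR-2428: acctccgccgca
miR-2486: CCCaCCCtacaccg
miR-2407: ccagCCCttCCCa
miR-2436-5p: cgCCCtCCCgac
miR-2389: ctccgactCCCga
miR-2476: ctaaccactagaccaca
miR-2392: tgcaCCCCtcaCCC
Only miR-2476 among these 8 had a GC share under 50%, at 47.1%, and the other seven lay between 69.2% and 83.3%.

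miR-2305 had the highest supernatant signal of the group, and its longest probe lies at chr13:39508075-39508085 of the cattle assembly HGSC Btau_3.1 named by the array design. Its signal was 391 ± 21.2 in exosome and 58909 ± 2633 in supernatant. The RefSeq gene of this miRNA overlaps RIN2, which encodes an exchange factor for Rab5 in early endosomes. miR-2412 (chr3:20317901-20317912), which overlaps no other RefSeq gene, read 704 ± 32.7 in exosome and 21610 ± 954 in supernatant. Both were bright in both fractions, and the values of each fraction lay far outside the spot spread of the other.

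miR-2316 (chr15:45749077-45749087), which overlaps no other gene, read 23.4 ± 4.15 in exosome and 15182 ± 595 in supernatant. miR-2328* (chr18:38310643-38310653), the star arm of a hairpin overlapping the zinc finger gene ZNF821, read 114 ± 8.02 and 14038 ± 467. miR-2374 (chr22:60954531-60954541), overlapping HMCES, which encodes a protein that binds abasic sites in DNA, read 23.1 ± 3.02 and 3638 ± 167. These 3 were high in supernatant and close to the detection limit or a few times above it in exosome. For miR-2374 in exosome just 1 of 2 probes was detected: the longer read 33.1 ± 3.45 and the shorter, lacking its last C, 13.1 ± 2.52.

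miR-2391 (chr26:11323593-11323606), which has no match in the RefSeq table, read 39.8 ± 4.22 in exosome and 2245 ± 59.8 in supernatant, with all 3 of its probes detected on each array. miR-2455 (chr7:15162281-15162292), overlapping no gene, read 20.3 ± 4.65 and 310 ± 11.7, and in exosome it rested on the longer of its 2 probes. miR-2304 (chr13:28152350-28152364), overlapping FRMD4A, which encodes a scaffold of cell polarity, read 40.1 ± 5.13 and 67.4 ± 8.32. Of the 9, miR-2304 had the smallest gap between arrays, and its values were still further apart than the spot spread. miR-2291 (chr10:66855856-66855867), overlapping no gene, read 18.9 ± 3.13 and 55.2 ± 6.96, with 1 of 2 probes detected in exosome.

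As deposited, with no scaling between arrays, all 9 were dimmer in exosome. The log2 difference, exosome minus supernatant, ran from -9.34 for miR-2316 to -0.75 for miR-2304 with a median of -5.82. Over the 30 array miRNAs detected on both arrays the unscaled median was -3.69, and over the 21 that are not of this group it was -1.21. Without scaling, 8 of the 9 were at least 2-fold higher in supernatant, against 70% of the 30, and 0 were at least 2-fold higher in exosome, against 16.7%. The array-wide values matter here because the supernatant array was brighter among the probes seen on both: their 75th percentile was 473 in exosome and 15030 in supernatant, over 53 probes. That supernatant value equals the signal of the longest miR-2316 probe, one of this group. The array's control spots did not show this gap. The log2 shift, exosome minus supernatant, was -0.08 for hybridisation controls and 1.59 for labelling controls, with exosome brighter in the latter. For the 75th percentile of all miRNA probes it was -0.25. With 81.9% of array miRNAs detected on neither array, that percentile falls among undetected probes. It therefore cannot show whether detected signals differ between arrays.

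Setting that percentile equal moves every difference up by 4.99 on the log2 scale. Scaled in this way, miR-2316 stood at -4.36, miR-2374 at -2.31, miR-2305 at -2.25 and miR-2328* at -1.96. miR-2391 stood at -0.83 and miR-2412 at 0.05. miR-2455, at 1.05, miR-2291, at 3.44, and miR-2304, at 4.24, came out higher in exosome. The spot SD of these differences ran from 0.092 to 0.34, and only miR-2412 lay within its own spot SD of 0. On this scale 4 of the 9 were at least 2-fold higher in supernatant, against 26.7% of the 30, and 3 were at least 2-fold higher in exosome, against 53.3%. The scaled median was -0.83, beside 1.30 for all 30 and 3.78 for the other 21.

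Over the 8 scalings compared, 5 of the 9 were lower in exosome under each: miR-2305, miR-2316, miR-2328*, miR-2374 and miR-2391. The range for miR-2316 was -10.93 to -4.36 and for miR-2391 -7.41 to -0.83. No miRNA of the 9 was higher in exosome under each scaling. miR-2304 ran from -2.34 to 4.24 and miR-2291 from -3.13 to 3.44, and each was below 0 under 4 scalings and above it under 4. miR-2455 was below 0 under 5 and miR-2412 under 6. The 8 scalings are not independent, since no scaling, all probes and hybridisation controls removed nearly the same shift (0, -0.25 and -0.08). Apart from scaling, a background fit with normexp put miR-2391 at 0.36, and keeping a left-out outlier spot put miR-2328* at 1.003.

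**Figure D1:**
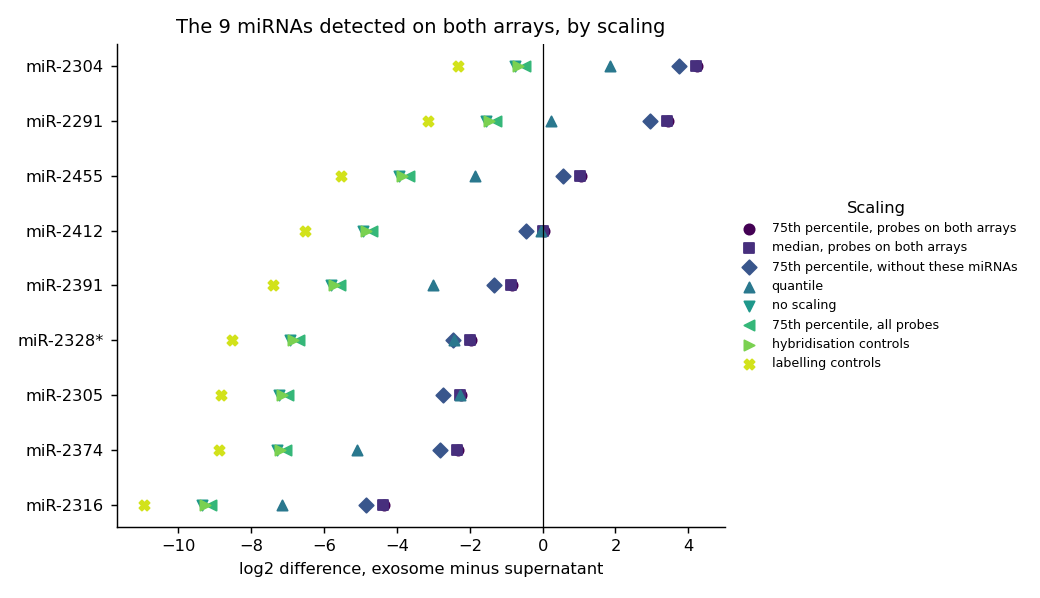
The log2 difference (exosome minus supernatant) of each of the 9 miRNAs detected on both arrays, 1 row per miRNA and 1 marker per scaling. Rows for miR-2316, miR-2374, miR-2305, miR-2328* and miR-2391 lie left of 0 for all 8 scalings, and the rows for miR-2412, miR-2455, miR-2291 and miR-2304 have markers on both sides of 0.

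miR-2288 alone was detected in exosome and not in supernatant, and its values were nearly the same on both arrays: 17.3 ± 3.40 in exosome and 15.5 ± 3.74 in supernatant. Its longest probe (chr1:140020341-140020357) was marked well above background in 73.7% of spots in exosome and in 38.9% in supernatant, and its other 2 probes were detected on neither array. It overlaps CPNE4, a copine gene whose family binds membranes in the presence of calcium. The probe is 2 edits (bases changed, added or lost) from a probe of let-7b, and the pair is shown for that likeness.
miR-2288: aaaccacacacctactac
let-7b: aaccacacaacctactac
let-7b, a member of the let-7 family of miRNAs found in most tissues, read 828 ± 47.6 in exosome and 44.6 ± 5.26 in supernatant. What share of the miR-2288 signal came from let-7b RNA was not tested. Without scaling no fold can be given for miR-2288, and after scaling the bound defined in the next paragraph was at least 29.2-fold higher in exosome, a value that comes from the scaling itself.

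For a miRNA not detected on one array only a bound can be given. The dim side was set to the lowest signal of any detected probe on that array, which was 18.2 in exosome and 18.8 in supernatant, or to the miRNA's own signal where that was higher. miR-2348 (chr19:55616759-55616769), overlapping TMC6, which encodes a transmembrane channel-like protein, read 1620 ± 111 in supernatant and -0.43 ± 2.77 in exosome. It was at least 88.9-fold higher in supernatant unscaled and at least 2.80-fold after scaling. miR-2428 (chr5:45205149-45205159), overlapping the kinesin gene KIF21A, read 643 ± 86.6 in supernatant and 6.62 ± 3.30 in exosome, at least 35.3-fold unscaled and 1.11-fold scaled. These were the only 2 of the 25 with a bound above 1 after scaling, against 6 of the 55 miRNAs of the whole array detected in supernatant only.

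miR-2486 (chrX:55318841-55318853), overlapping GPKOW, a gene of the splicing machinery, read 358 ± 30.8 in supernatant, at least 19.7-fold above exosome unscaled. Its exosome signal was 15.7 ± 4.05, and its longer probe was marked well above background there in 41.4% of spots, just under the call. miR-2407 (chr29:45240330-45240341), overlapping the calpain gene CAPN1, read 262 ± 26.3 and -1.70 ± 2.51, at least 14.4-fold. miR-2436-5p (chr5:90148387-90148397), overlapping no gene, read 224 ± 14.7 in supernatant and -0.68 ± 2.95 in exosome, at least 12.3-fold. These 3 had a clear supernatant signal, and no bound was left for any of them once the arrays were scaled.

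miR-2389 (chr25:43637025-43637036), overlapping C25H7orf50 and the receptor gene GPR146, read 218 ± 19.6 in supernatant and 1.79 ± 3.32 in exosome, at least 11.96-fold unscaled. miR-2476 (chr9:5636364-5636379), unmatched in RefSeq, read 157 ± 9.91 and 11.0 ± 2.85, at least 8.61-fold. miR-2392 (chr26:24251699-24251711), overlapping SFXN2, which encodes a mitochondrial carrier of the sideroflexin family, read 131 ± 15.4 and 7.98 ± 3.21, at least 7.16-fold. Along with the other five, these made up the 8 brightest, and on the exosome array all 8 were below the lowest detected probe.

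The other 17 detected in supernatant only were, from bright to dim, miR-2340, miR-2309, miR-2454, miR-2373*, miR-2300a-5p, miR-2382*, miR-2302, miR-2487, miR-2295, miR-2333, miR-2441, miR-2408, miR-2422, miR-2413, miR-2410, miR-2330* and miR-2406. Their supernatant signals ran from 119 for miR-2340 down to 7.04 for miR-2406. Among them were miRNAs overlapping DNMT1, the maintenance DNA methyltransferase (miR-2454), PLEC, the cytoskeletal linker plectin (miR-2309), FLT1, a receptor for vascular endothelial growth factor (miR-2300a-5p), and FLNC, an actin cross-linker (miR-2422). Of the 25, 22 had a bound above 1 without scaling, 14 of at least 2-fold and 6 of at least 10-fold. Over the 55 of the whole array these counts were 51, 32 and 12.

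Supernatant calls were concentrated at a high GC share of the longest probe. Of 44 miRNAs with a GC share under 40%, 0 were detected in supernatant. From 40% to under 50% there were 3 of 49, from 50% to under 60% 3 of 62, and from 60% to under 70% 8 of 53 (15.1%). At 70% and above there were 20 of 32 (62.5%). The share was not higher at 50% to under 60% (4.84%) than at 40% to under 50% (6.12%), and it rose over the 2 classes above. In the rest of the array it rose over all classes, with 1 of 94, 5 of 125 (4.00%), 6 of 110 (5.45%), 16 of 60 (26.7%) and 23 of 41 (56.1%). The high share at 70% GC and above was common to the 240 and the rest.

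In exosome the 240 and the rest of the array parted in the lower GC classes. Below 70% GC, 3 of 208 (1.44%) of the 240 were detected in exosome, and 47 of 389 (12.1%) of the rest. At 70% and above 7 of 32 were, beside 9 of 41 of the rest. In supernatant the shares below 70% were close, 14 of 208 (6.73%) and 28 of 389 (7.20%). The 3 low-GC miRNAs of the exosome calls were miR-2304, miR-2391 and miR-2288.

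**Figure D2:**
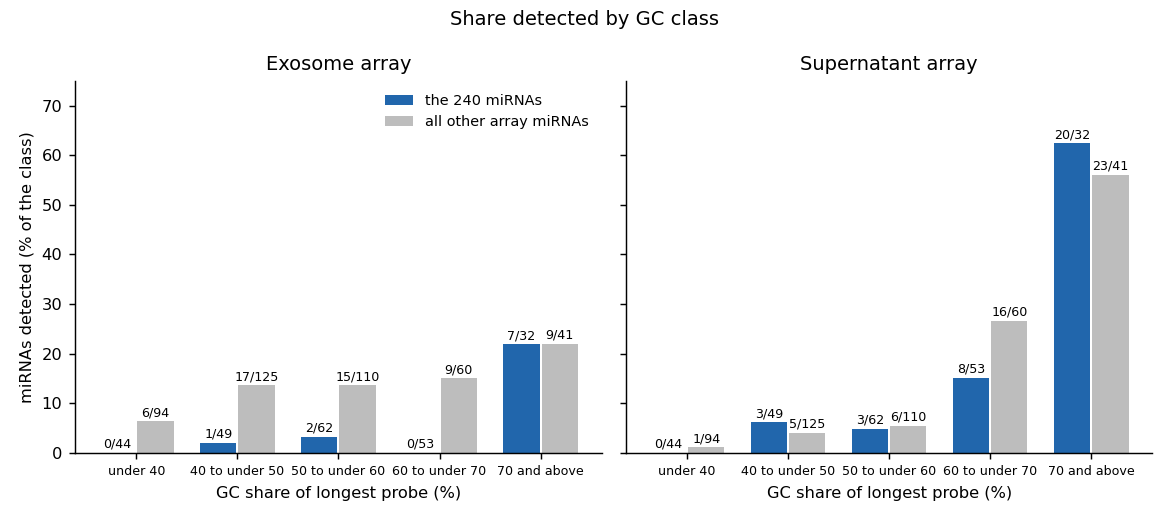
Percent of miRNAs detected in each class of probe GC share, for the 240 miRNAs (blue) and all other array miRNAs (grey), with counts over the bars, in exosome (left) and supernatant (right). The supernatant bars rise to 62.5% and 56.1% in the highest class, and in exosome the blue bars are near 0 in every class but the highest.

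The median GC share was 76.9% for the 9 detected on both arrays, 71.4% for the 25 in supernatant only and 52.9% for the 205 on neither. Between all 34 seen in supernatant and the 205 seen on neither the medians differed by 22.1 percentage points. The single miRNA of exosome only, miR-2288, had 44.4%. With the software's more lenient mark, positive and significant, 50 of the 240 counted as detected in exosome and 74 in supernatant, and the GC gap shrank to 1.46 points. Below the stricter call, signal went the other way with GC: the median signal of undetected miRNAs was 3.79 in exosome and 4.04 in supernatant under 40% GC, and -2.27 and -1.87 at 70% and above. Across the 205 undetected miRNAs Pearson's r of GC share and signal was -0.64 in exosome and -0.47 in supernatant, values that share 1 array and 1 background each. Negative control spots read 4.67 ± 3.46 and 4.41 ± 3.35.

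**Figure D3:**
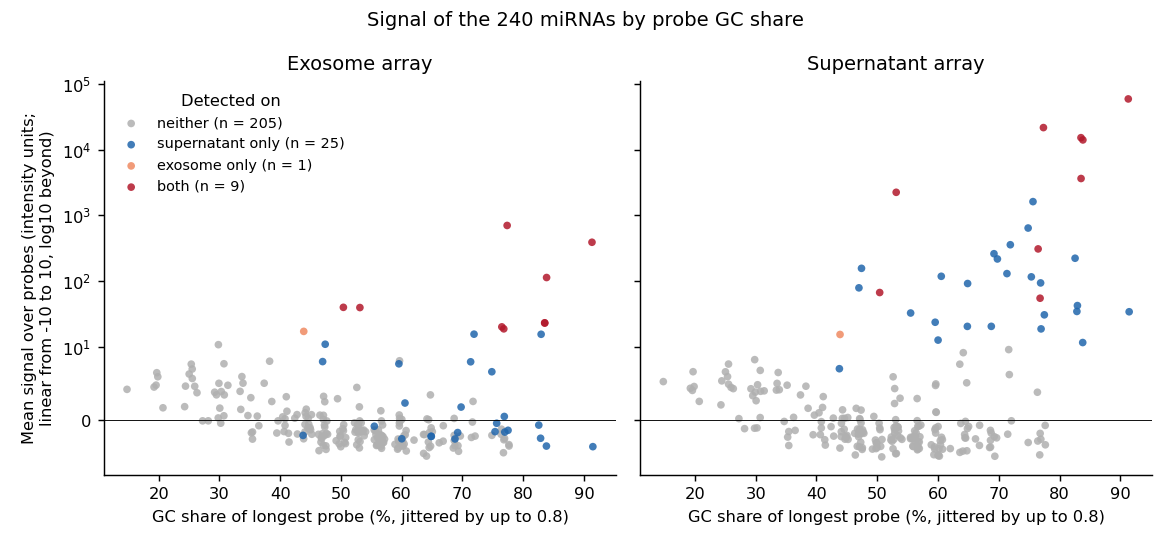
Mean signal of each of the 240 miRNAs (vertical, linear near 0 and log10 beyond) against the GC share of its longest probe (horizontal), in exosome (left) and supernatant (right), coloured by the arrays that detected it. Grey points slope down with GC around 0, and the coloured points lie above them mostly at 70% and more.

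Probe length cannot be told apart from GC share over the whole group, since Pearson's r between them was -0.95 over the 240 miRNAs (-0.85 over the other 430). In supernatant 12 of 13 miRNAs with probes of 10 to 12 bases were detected, 9 of 24 at 13 bases, 4 of 23 at 14, 4 of 38 at 15, 2 of 36 at 16, 3 of 63 at 17 to 18 and 0 of 43 at 19 to 22. The rest of the array had a similar gradient, with 13 of 20, 8 of 18, 7 of 28, 9 of 45, 5 of 63, 5 of 115 and 4 of 137. The median longest probe had 13 bases for those seen in supernatant and 16 for those seen on neither. Within 1 length the bases of detected and undetected miRNAs differed at some lengths more than at others. At 13 bases the 9 detected had a median of 53.8% C and 15.4% G, and the 15 not detected 38.5% C and 38.5% G. At 14 bases the 4 detected had 57.1% C and 10.71% G, and the 19 not detected 42.9% C and 21.4% G. At 15 bases the values were close, with 43.3% C and 16.7% G in the 4 detected, 40% C and 20% G in the 34 not detected, and a median GC share of 60% in each. At 16 bases the 2 detected had a median of 50% C and 3.12% G, against 31.2% C and 25% G for the 34 not detected.

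Detection in supernatant also went with the balance of C and G. Among the 32 miRNAs at 70% GC and above, the 20 detected in supernatant had a median of 59.9% C and 16.7% G, and the 12 seen on neither 38.5% of each. The 2 sets overlapped. C share minus G share ran from -50 to 76.9 points in the 20 and from -46.2 to 28.6 in the 12. Undetected miR-2442, miR-2449 and miR-2467 had 50% C and 21.4% G. Over the 85 miRNAs at 60% GC and above, 12 of 16 were detected in supernatant where the C share exceeded the G share by 40 points or more, and 9 of 28 where it did so by 20 to under 40. Of those with 0 to under 20 points 4 of 20 were, of those with G ahead by up to 20 points 1 of 12, and of those with G further ahead 2 of 9. The rest of the array at this GC share had 14 of 16 in the class of most C, and then 5 of 25, 6 of 15, 6 of 21 and 8 of 24. The high share for C-rich probes was thus common to both, while G-rich probes were detected in 8 of 24 outside the group. Of all 240, 7 of the 15 with a C run of 4 or more were detected in supernatant, 11 of the 36 with a run of 3, and 16 of the 189 with less. In the rest of the array these counts were 13 of 19, 11 of 67 and 27 of 344. This split by C and G was added after the values had been seen.

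**Figure D4:**
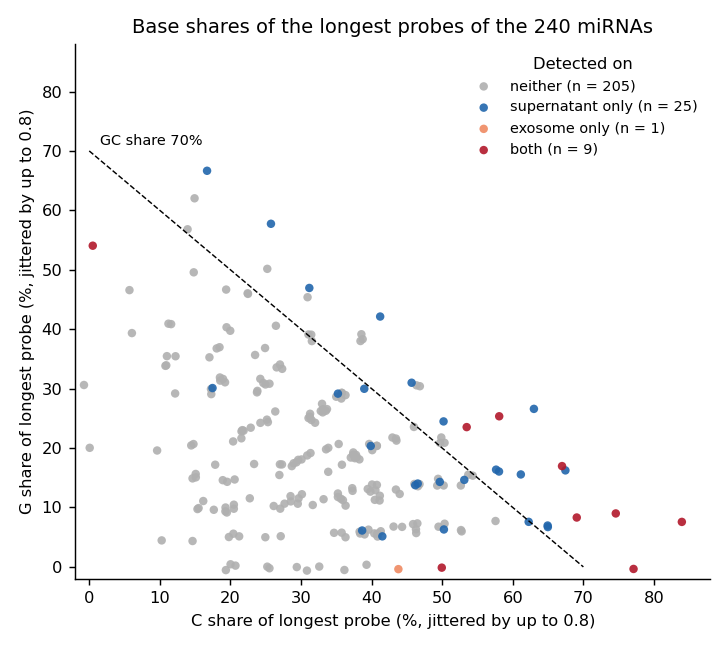
C share (horizontal) against G share (vertical) of the longest probe of each of the 240 miRNAs, coloured by the arrays that detected it, with a dashed line where the GC share is 70%. Coloured points gather at the lower right, at high C and low G. Beyond the line, C share minus G share of the grey points runs from -46.2 to 28.6 points, with a median of 0.

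A high GC share was not enough for detection. The highest share among undetected miRNAs was 76.9%, held by miR-2289, miR-2328, miR-2373, miR-2415, miR-2436-3p, miR-2457 and miR-2469. Their signals ran from -4.46 to -1.23 in exosome and from -4.75 to 3.82 in supernatant. The probes of all 7 are shown beside the C-rich probes above.
miR-2289: ggacgcgagctcg
miR-2328: ccggcgaccaagg
miR-2373: gccgagCCCtgac
miR-2415: gcgtcggtccagc
miR-2436-3p: ttgggcgaggcgg
miR-2457: agcgcggctctgc
miR-2469: aagccgcaggCCC
miR-2373 and miR-2469 hold a run of 3 C and have 46.2% C against 30.8% G. miR-2328, miR-2415 and miR-2457 have 38.5% of each. G was ahead in miR-2289, at 46.2% against 30.8% C, and in miR-2436-3p, at 61.5% against 15.4%. The brightest undetected miRNAs were miR-2420 (10.9 ± 3.74 in exosome, 8.27 ± 4.04 in supernatant), miR-2311 (8.12 ± 3.48 in exosome) and miR-2369 (8.06 ± 3.88 in exosome), and, in supernatant, miR-2449 (9.65 ± 3.40) and miR-2368* (9.23 ± 4.25). All 5 were below the lowest detected probe of either array.

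G-rich probes that were detected are the exceptions. miR-2382* (gtggggcgaggc, 66.7% G) read 42.7 ± 4.59 in supernatant and 15.6 ± 3.69 in exosome, and miR-2330* (gacggccagggg, 58.3% G) 11.7 ± 3.83 and -3.54 ± 2.29. Besides these, G outnumbered C in 3 of the detected miRNAs: miR-2391, whose probe opens with 7 G, miR-2333 (gggCCCtggagtc, 46.2% G) and miR-2300a-5p (29.4% G).

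Adding a single base to a probe changed its signal strongly in some cases. All the longer probes of a miRNA compared here repeat the shorter one and add 1 base at its 3′ end, toward the seed of the miRNA, and 35 such steps of the 240 miRNAs had at least 1 probe detected in supernatant. Where the added base was C, 13 of 18 steps were brighter with it, and 3 went from undetected to detected. Where it was G, 3 of 5 were brighter and 2 became detected. Where it was A or T, 4 of 12 were brighter and 0 became detected. Outside the group the counts of brighter steps were 16 of 23 for C, 9 of 15 for G and 7 of 19 for A or T. There 2, 4 and 0 steps became detected, in that order. Brighter means any rise, also 1 within the spot spread, as for miR-2382* from 42.4 ± 3.68 to 42.9 ± 5.35. Some steps with a large change relative to the shorter probe, chosen after their values were seen, are shown with both probes.
miR-2413, shorter: accgcagtCCCC
miR-2413, longer: accgcagtCCCCC
miR-2392, shorter: tgcaCCCCtcacc
miR-2392, longer: tgcaCCCCtcaCCC
miR-2340, shorter: cacaagaccaccag
miR-2340, longer: cacaagaccaccagg
miR-2455, shorter: tCCCtgcctCCC
miR-2455, longer: tCCCtgcctCCCC
In supernatant miR-2413 went from 0.49 ± 3.14 to 37.2 ± 5.87 with 1 more C in its closing run, and miR-2392 from 21.9 ± 5.03 to 239 ± 21.2. miR-2340 went from 11.4 ± 4.71 to 226 ± 22.3 with a second G, and miR-2455 from 128 ± 7.86 to 492 ± 14.5. Each step lay far outside the spot spread of both probes. The largest step in intensity units was that of miR-2328*, from 7171 ± 246 to 20904 ± 613 with an added C. miR-2410, miR-2330* and miR-2406, at 26.5 to 28.0 with the added base and below 0 without it, were likewise detected through their longest probe alone, so the supernatant calls of these and of miR-2413 and miR-2340 rest on 1 probe each. In the other direction, miR-2476 fell from 206 ± 10.9 to 108 ± 8.84 with an added A and miR-2407 from 321 ± 28.4 to 203 ± 24.1.

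**Figure D5:**
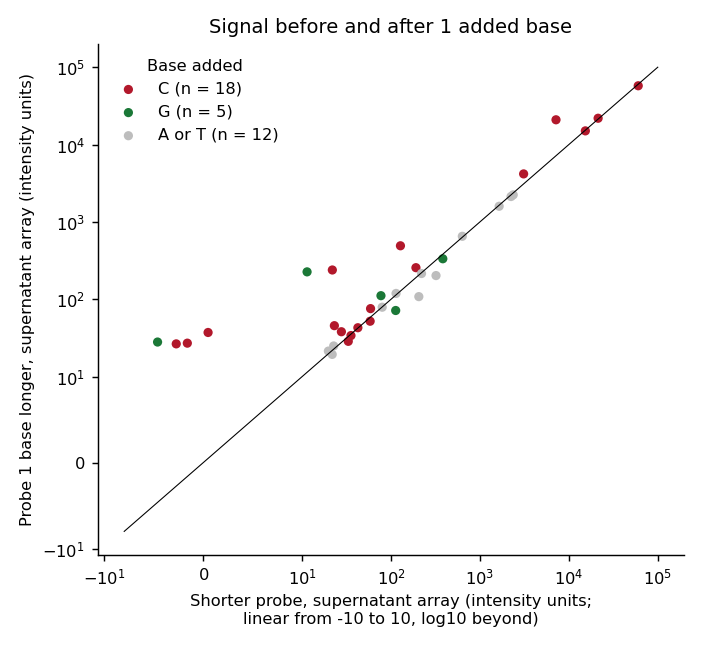
Supernatant signal of each probe (vertical) against that of the probe 1 base shorter (horizontal) for the 35 steps with a detected probe, coloured by the base added, with a line of equality. Points far above the line are those with an added C or G, and points with an added A or T lie close to it or under it.

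Several detected miRNAs had probes that closely matched a stretch of the probes of other detected miRNAs. In this comparison bases of the longer probe outside the matched stretch were not counted as edits. Within 2 edits of a probe of another detected miRNA were 6 of the 9 seen on both arrays, 8 of the 25 in supernatant only (32%), miR-2288, and 23 of the 205 on neither (11.2%). Some had several such neighbours, as miR-2305 had miR-1224, miR-2328* and miR-2412. For 5 of the 6 seen on both arrays the neighbours included miR-1777a or miR-1777b, whose probes are nearly all C.
miR-1777a: CCCgCCCCCCa
miR-1777b: CCCCgCCCCCC
Their signals were 1314 and 2079 in exosome and 125084 and 102937 in supernatant. Counted in this way, miR-2309 and miR-2455 differed by 1 edit, and miR-2309 read 117 ± 12.2 in supernatant and was not detected in exosome. Leaving out every miRNA with such a neighbour left 3 detected in exosome and 20 in supernatant. A limit of 2 edits is looser for shorter probes. The longest probes had a median of 13 bases on both arrays and in supernatant only, and 16 on neither. The shares with a close neighbour are thus not on equal terms, and none was taken over the rest of the array. How much of each signal came from a neighbour's RNA was not tested.

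Of 34 hairpins with both arms on the array, 0 had both arms detected, 7 had 1 and 27 none. Only 14.6% of the 240 miRNAs were detected on any array, so few hairpins with both detected could be looked for. The count of 0 thus does not by itself show a choice between arms. Hairpins outside the group were not counted. The 7 arms were miR-2328*, miR-2330*, miR-2373*, miR-2382*, miR-2436-5p, miR-2454 and miR-2486. For miR-2328 the star arm read 14038 in supernatant and the other arm 3.82 ± 3.47, and for miR-2436 the 5p arm read 224 and the 3p arm -2.61 ± 2.87. The 2 arms have different probes, so their signals are not levels on 1 scale.
miR-2328*: tggCCCCCtCCC
miR-2328: ccggcgaccaagg
miR-2330*: gacggccagggg
miR-2330: ccagtcctcactgcc
These hairpins differ in which arm had more C in its probe. The detected arm had more C than its partner in 4 of the 7 hairpins, those of miR-2328, miR-2436, miR-2454 and miR-2486. It had less C in the other 3: 25% against 53.3% for miR-2330*, 16.7% against 42.9% for miR-2382* and 35.7% against 46.2% for miR-2373*. The GC share was higher in the detected arm in 6 of the 7 and lower for miR-2373*.

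Most probes map to 1 place. The longest probe was listed at 1 place for 225 of the 240, and 34 of those (15.1%) were detected: 9 on both arrays, 1 in exosome only and 24 in supernatant only. Outside the group 71 of 370 (19.2%) with 1 place were detected. Several places were listed for 10, of which 0 were detected on either array, beside 11 of 41 outside the group. An unplaced contig was listed for 5, with miR-2410 detected in supernatant, beside 4 of 16 detected outside the group, and none lacked a place. The 10 with several places all had a GC share of at most 60%, so mapping and GC share cannot be told apart here. The 225 lay on 30 chromosomes, 19 of which held a detected miRNA, with at most 3 on one chromosome. No detected miRNA lay within 10 kb of another detected one. However, every pair of these miRNAs within 10 kb of each other lay only 32 to 47 bases apart. Apart from miR-2300a-5p and miR-2300b-3p, these pairs were both arms of a hairpin. The statement thus largely repeats the result for arms and cannot speak to clusters of separate hairpins. Pairs outside the group were not counted.

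The listed interval was 1 base shorter than the probe for 478 of 484 probes at 1 place, so each position above is known to within 1 base. The strand is not given, since in all 259 nested pairs at 1 place the added base moved the lower bound, whichever way the design listed the interval. In the newer ARS-UCD2.0 assembly RefSeq has a gene for 233 of the 240. These overlapped a protein-coding gene for 183, of which 23 (12.6%) were detected, a long non-coding RNA for 12, of which 1 was, and no other gene for 38, of which 8 (21.1%) were. Outside the group the detected counts were 43 of 251 (17.1%), 12 of 51 (23.5%) and 30 of 124 (24.2%) in that order. Of the 7 without a match 3 were detected, miR-2391, miR-2487 and miR-2476. The RefSeq table gives gene spans without exons or introns, and overlap was counted on either strand.

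Other cattle-registered names on the array gave different shares. The lettered miR-2284 and miR-2285 family, many related copies in the cattle genome, had 2 of 30 detected in exosome and 0 in supernatant. miR-2881 to miR-2904 had 4 of 23 in exosome and 9 in supernatant (39.1%). The 14.2% of the 240 in supernatant lay between these sets, and their 4.17% in exosome lay below both (6.67% and 17.4%). The sets were not matched for probe GC share, so these shares are not on equal terms. As a check of the fractions, miRNAs of milk-producing epithelium were read on the same arrays. miR-200c read 343 ± 24.5 in exosome and 44.7 ± 4.47 in supernatant, miR-141 302 ± 21.1 and 181 ± 14.1, and miR-375 40.1 ± 6.42 and 16.4 ± 4.38. miR-148a read 110 ± 8.23 in exosome and was not detected in supernatant. All 4 were brighter in exosome unscaled, as was let-7b, while each of the 9 miRNAs on both arrays was brighter in supernatant. Only unscaled values are given for these check miRNAs, and their direction under the other scalings is not given here. Brighter in supernatant was also the commoner direction outside the group. Of the 21 other miRNAs on both arrays, 15 were brighter in supernatant and 6 in exosome. Those 6 include miR-200c, miR-141, miR-375 and let-7b, so these check miRNAs are not typical of the array.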

How the data were processed

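Deposited scanner files of 2 1-colour Agilent arrays were used, 1 per fraction. Per the file headers and the submitters' processing notes, spots were read by the software Agilent Feature Extraction, version 10.7.3.1. The processed values deposited by the authors are background-subtracted intensities, and a deposited table holds log2 values per miRNA, which served as an alternative. Outlier spots (371 in exosome and 394 in supernatant for these miRNAs) were left out, spots were averaged per probe and probes per miRNA. No spot of these miRNAs was saturated. Differences are log2 ratios after setting equal the 75th percentile of probes detected on both arrays, and unscaled values stand beside them. With 1 array per fraction no test was made, and the number of arrays limits the precision. The median spot CV of detected miRNAs was 12.9% in exosome and 10.6% in supernatant.

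Named are all miRNAs detected on an array, with full values for those on both arrays, in exosome only and the 8 brightest in supernatant only, plus the undetected miRNAs highest in signal or GC share. The miRNAs, lists and probes shown were chosen with earlier results of these data known. miRNAs singled out, such as those with G-rich probes, were chosen after their values were seen. Mature miRNA sequences were not used here; probe sequences are those of the array design. RefSeq (ARS-UCD2.0) gave names and overlaps. The calculations were tested on simulated data. Python 3.11.15, numpy 2.4.6, pandas 2.3.3, and R 4.3.3 with limma 3.58.1 (normexp, offset 50) were used.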

Additional observations from a re-analysis of the deposited data

Results flagged for a closer look

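A single spot of the shorter miR-2328* probe on the exosome array, left out because the scanner software marked it as an outlier, read 52218, while the other 29 spots of that probe averaged 100 ± 7.51. It is the signal seen in data that the comparisons did not use. Keeping such spots turned the scaled log2 difference of miR-2328* from -1.96 to 1.003.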

How the results depend on the processing

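With 1 array per fraction nothing here can separate a fraction from its array. Under positive and significant spots, the counts rose to 50 in exosome, 74 in supernatant, 45 on both and 5 in exosome only, and the gaps between miRNAs detected in supernatant and on neither were 1.46 points of GC share and -1 base of length. Requiring every probe left 6 in exosome and 0 in exosome only. Requiring all spots left 0 in exosome only, as did odd spots alone. Without classes of GC share the supernatant share was 14.2% in place of 62.5%. Without miRNAs whose probes are within 2 edits of another detected miRNA's, an alternative chosen after seeing the data, 3 were detected in exosome, 20 in supernatant, 3 on both and 0 in exosome only.

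The median log2 difference of miRNAs on both arrays, -0.83, became -5.82 with no scaling, -5.56 with the 75th percentile of all probes, -2.27 with quantile normalization, -7.41 with labelling controls, -5.74 with hybridisation controls, -1.33 without these miRNAs' own probes in the percentile, -0.0088 with normexp, 0.38 with the software's total gene signal, -4.81 in the deposited value table, -0.10 with outlier spots kept and -0.37 with odd spots. Among those with a scaled difference of at least 2-fold, signs turned for miR-2291 (-1.55, -1.29, -3.13 and -1.47 with no scaling, all probes, labelling controls and hybridisation controls, and -1.55 in the deposited table), for miR-2304 (-0.75, -0.49, -2.34, -0.67 and -0.75 in that order), for miR-2455 (-3.94, -3.68, -5.52, -3.86 and -4.22, and -1.86 with quantile normalization), and for miR-2328* (1.003 with outlier spots kept). Of the smaller differences, that of miR-2412 turned from 0.05 to -4.94 with no scaling, among other settings. That of miR-2391 turned to 0.36 with normexp. With the floor at the lowest detected miRNA (8.21 and 7.04), also added after seeing the data, 24 of the 25 miRNAs of supernatant only had a bound unscaled and 3 scaled. The comparison of GC share over mature miRNAs was not run. No paired analysis was possible because each fraction has 1 array. The cause of these changes was not tested.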
